A study of Mus musculus with 4 samples.

Results

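Of the 2976 rows of a small RNA table from sorted mouse embryonic stroma, 9 are gene copies of 4 miRNAs best known from the nervous system, and these 9 are described here. They were chosen by gene ID and not by level. They are the 3 copies of miR-9 (Mir9-1, Mir9-2 and Mir9-3), the 2 copies of miR-219a (Mir219a-1 and Mir219a-2), the 3 numbered copies of miR-124, and the single gene Mir137. All 9 are among the 643 miRNA precursor genes of the table.

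The cells were flow-sorted Tbx18-expressing stroma from beside the wolffian duct, the epithelial tube that gives rise to the ureteric bud, of CD1 embryos at E10.5. Their genotype was Tbx18-Cre;CAG-tdTomato, and the description field calls them wild type. The red reporter marks cells in which Tbx18-driven Cre has acted, and their descendants. There were 4 libraries in 1 group, numbered 1 to 4, so nothing here compares conditions, and since the labels name no separate embryos or pools, spreads and p-values cover only these libraries and may be technical.

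miRNAs are cut from hairpin precursors as short mature strands, and bases 2 to 8 of a strand, the seed, choose the messenger RNAs it represses. In vertebrates miR-9 is abundant in neural progenitors and guides the timing of neurogenesis, miR-124 is abundant in neurons and promotes their differentiation, miR-219 promotes oligodendrocyte differentiation, and miR-137 acts in neural progenitors and at synapses. None of the 4 is a usual marker of mesenchymal stroma.

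The mature strands are shown because the table lists precursor genes, and copies that share a strand cannot be told apart by a read of that strand. The sequences, for 6 of the 9 genes, are from RefSeq on GRCm38.p6, 5′ to 3′ with the seed in capitals.
miR-9-5p: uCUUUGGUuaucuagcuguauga
miR-9-3p: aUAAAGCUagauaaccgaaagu
miR-219a-5p: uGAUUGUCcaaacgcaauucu
miR-219a-1-3p: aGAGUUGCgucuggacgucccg
miR-137-5p: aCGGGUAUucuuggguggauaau
miR-137-3p: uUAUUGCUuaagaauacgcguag
The strands miR-9-5p and miR-9-3p are identical in all 3 miR-9 hairpins, and miR-219a-5p is identical in both miR-219a hairpins. Each of the 6 seeds differs from the others, and no other mature mouse miRNA in the same RefSeq table shares one of them. The levels below are per precursor gene, so they join the strands of a hairpin and are not levels of a single seed. Seeds of the 3 miR-124 copies were not checked.

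The hairpins are shown for the miR-9 copies because most reads of the set were listed under 1 of them. Capitals mark the mature strands.
Mir9-3: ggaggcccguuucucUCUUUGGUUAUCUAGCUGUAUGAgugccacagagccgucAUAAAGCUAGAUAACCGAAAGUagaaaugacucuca
Mir9-1: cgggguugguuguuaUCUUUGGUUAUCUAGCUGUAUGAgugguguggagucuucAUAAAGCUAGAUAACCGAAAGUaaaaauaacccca
Mir9-2: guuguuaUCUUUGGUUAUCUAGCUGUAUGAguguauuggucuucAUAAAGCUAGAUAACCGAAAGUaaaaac
Outside the capitals the 3 hairpins differ. Over a global alignment, Mir9-1 was identical to Mir9-3 at 78.9% of columns and to Mir9-2 at 78.7%, and Mir9-2 to Mir9-3 at 71.1%. The longest run shared by Mir9-3 with either other copy was 26 nt, a little longer than the 23 nt of miR-9-5p.

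The miR-219a hairpins are shown because their second arms differ. Capitals again mark the mature strands listed in RefSeq.
Mir219a-2: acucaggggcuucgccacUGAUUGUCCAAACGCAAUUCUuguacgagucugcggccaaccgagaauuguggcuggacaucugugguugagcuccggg
Mir219a-1: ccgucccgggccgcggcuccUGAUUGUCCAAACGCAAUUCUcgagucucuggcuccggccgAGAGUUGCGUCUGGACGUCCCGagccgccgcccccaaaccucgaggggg
The 2 were identical at 63.2% of aligned columns, with a longest shared run of 22 nt, against 21 nt for miR-219a-5p.

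On GRCm38, Mir9-3 (gene ID 723968) lies at chr7:79505264-79505353 on the plus strand, in an intron of its host Mir9-3hg. Mir9-1 (387133) lies at chr3:88215598-88215686 on the plus strand, in an intron of the long noncoding gene Gm3764. Mir9-2 (723967) lies at chr13:83738814-83738885 on the plus strand and overlaps an exon of the long noncoding gene C130071C03Rik. Mir219a-2 (723904) lies at chr2:29845631-29845727 and Mir219a-1 (723823) at chr17:34024983-34025092, both on the minus strand, the first within the RefSeq span of the protein-coding gene Cercam and the second over an exon of the long noncoding gene Gm26940. Mir137 (387155) lies at chr3:118433857-118433929 on the plus strand, over an exon of Gm26871. Opposite the miR-9 and miR-219a hairpins, RefSeq places antisense miRNA genes (the miR-9b genes, Mir219b and Mir219c). None of these has a row in the table, and because no source used here says whether strand was used in counting, reads of the 2 strands cannot be told apart.

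Levels are given as TPM, in which the authors corrected reads for gene length and set each library to 1 scaling total, and as RPM, reads scaled to a total of 1000000 miRNA reads per library, from read numbers recovered out of the TPM values. The second scale is needed because TPM in this table summed to 2.33% to 7.22% of the scaling total, least in library 4, so the rest of a library moves a TPM value. The miRNA reads numbered 883201, 1087240, 978210 and 146255 in libraries 1 to 4, and library 3 was thus neither the deepest nor the shallowest. Read-based intervals are exact Clopper-Pearson 95% intervals and, like limits for a count of 0, cover counting error only.

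Mir9-3 carried most of the signal. Its level was 345, 35.2, 2861 and 78.3 TPM in libraries 1 to 4, a mean of 830 ± 1361 TPM (SD, n = 4), and 153 ± 168 TPM (SD, n = 3) without library 3. Library 3 stood far above the rest, at 8.28 times the next library in TPM (5.61 in RPM) and 81.3 times the lowest, and the SD exceeded the mean. In reads these levels were 7948, 651, 49355 and 760, the most of the 9 copies in every library. As a share of all miRNA reads, Mir9-3 took 0.900% (95% interval 0.880 to 0.920) in library 1, 0.0599% (0.0554 to 0.0647) in library 2, 5.05% (5.002 to 5.089) in library 3 and 0.520% (0.483 to 0.558) in library 4. No pair of these intervals overlaps, so the libraries differed by more than counting error in this miRNA. Among the 643 miRNA genes ranked by TPM, Mir9-3 was 33rd, 116th, 3rd and 44th in libraries 1 to 4.

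Mir9-1 was listed at 1.98, 0.328, 16.9 and 0.521 TPM in libraries 1 to 4, from 45, 6, 288 and 5 reads. It was highest in library 3, at 8.54 times the next library in TPM and 5.78 times in RPM. Mir9-2 was listed at 0.0543, 0, 2.03 and 0.387 TPM, from 1, 0, 28 and 3 reads. The 0 reads of Mir9-2 in library 2 allowed up to 0.203 TPM, taking 3 reads as the limit. Only library 3 gave Mir9-2 a level above 1 TPM.

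**Figure D1:**
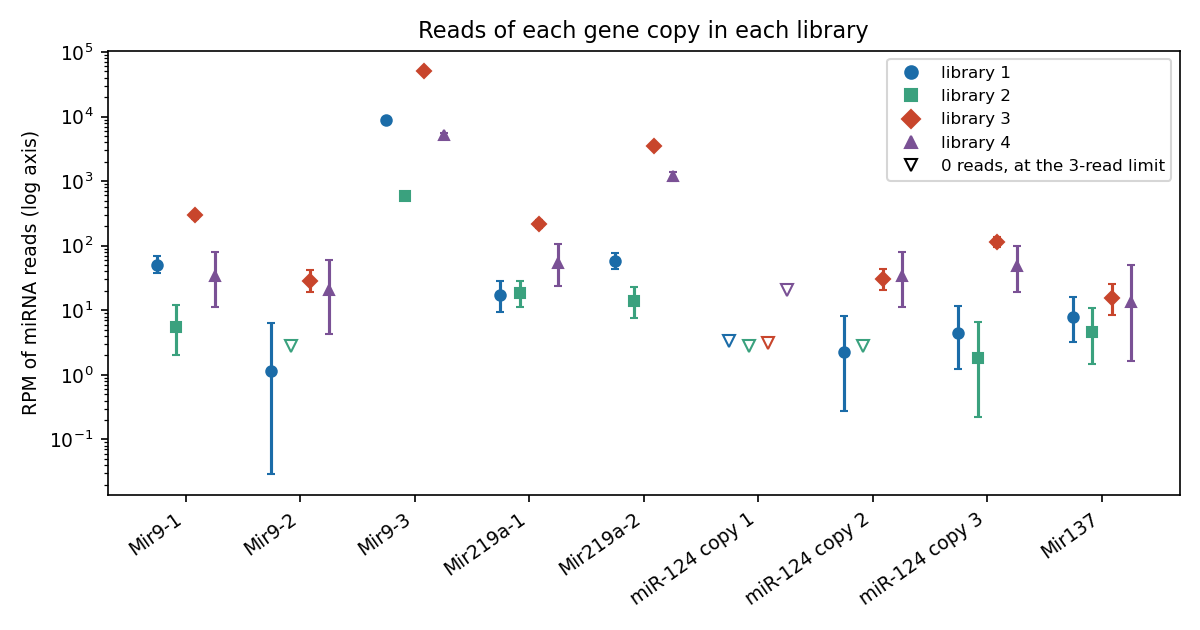
RPM of miRNA reads (log axis) of each of the 9 gene copies, 1 point per library with its exact 95% interval, and open triangles at the 3-read limit where a copy had 0 reads. Mir9-3 is the highest copy in every library and reaches 50454 in library 3, and the first miR-124 copy has 0 reads throughout.

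The share of Mir9-1 against Mir9-3 did not differ beyond counting error. Mir9-1 reads made up 0.563% (0.411 to 0.753), 0.913% (0.336 to 1.98), 0.580% (0.515 to 0.651) and 0.654% (0.213 to 1.52) of Mir9-1 and Mir9-3 reads together in libraries 1 to 4. All 4 intervals overlap, although those of libraries 2 and 4 rest on 6 and 5 Mir9-1 reads, while the reads of all miR-9 copies ranged from 657 in library 2 to 49671 in library 3. The share of Mir9-2 varied more, at 0.0126% (0.000319 to 0.0701) of Mir9-2 and Mir9-3 reads in library 1, 0.0567% (0.0377 to 0.0819) in library 3 and 0.393% (0.0812 to 1.14) in library 4. The library 4 interval lies above that of library 1, though it rests on 3 reads. Because the copies share both mature strands and how multi-mapping reads were handled is not stated in the labels, these splits describe how reads were listed, and the loci that made the RNA cannot be told apart.

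Mir219a-2 was the second most abundant member, at 2.06, 0.752, 181.5 and 16.5 TPM in libraries 1 to 4, from 51, 15, 3376 and 173 reads. Its mean was 50.2 ± 87.8 TPM (SD, n = 4), and 6.45 ± 8.77 TPM (SD, n = 3) without library 3. Library 3 stood at 11.0 times the next library, which for this miRNA was library 4 and not library 1 as for Mir9-3. In RPM that step was 2.92-fold. Mir219a-1 was listed at 0.533, 0.884, 10.1 and 0.675 TPM, from 15, 20, 214 and 8 reads. It too was highest in library 3, at 11.5 times the next in TPM and 4.00 times in RPM, with the other libraries below 1 TPM.

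The split between the miR-219a copies varied between libraries. Reads listed under Mir219a-1 were 22.7% (13.3 to 34.7) of the reads of both copies in library 1 and 57.1% (39.4 to 73.7) in library 2. They were 5.96% (5.21 to 6.79) in library 3 and 4.42% (1.93 to 8.52) in library 4. The intervals of libraries 1 and 2 lie above those of libraries 3 and 4. The copy whose 3p strand is listed as miR-219a-1-3p was thus listed with a larger share where miR-219a was scarce, at 66 reads in library 1 and 35 in library 2. Its share was smaller where miR-219a was plentiful, at 3590 reads in library 3 and 181 in library 4. Reads are listed by precursor, so the share of each strand behind this was not measured. Both copies share miR-219a-5p, so as for miR-9 the loci that made the RNA cannot be told apart.

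**Figure D2:**
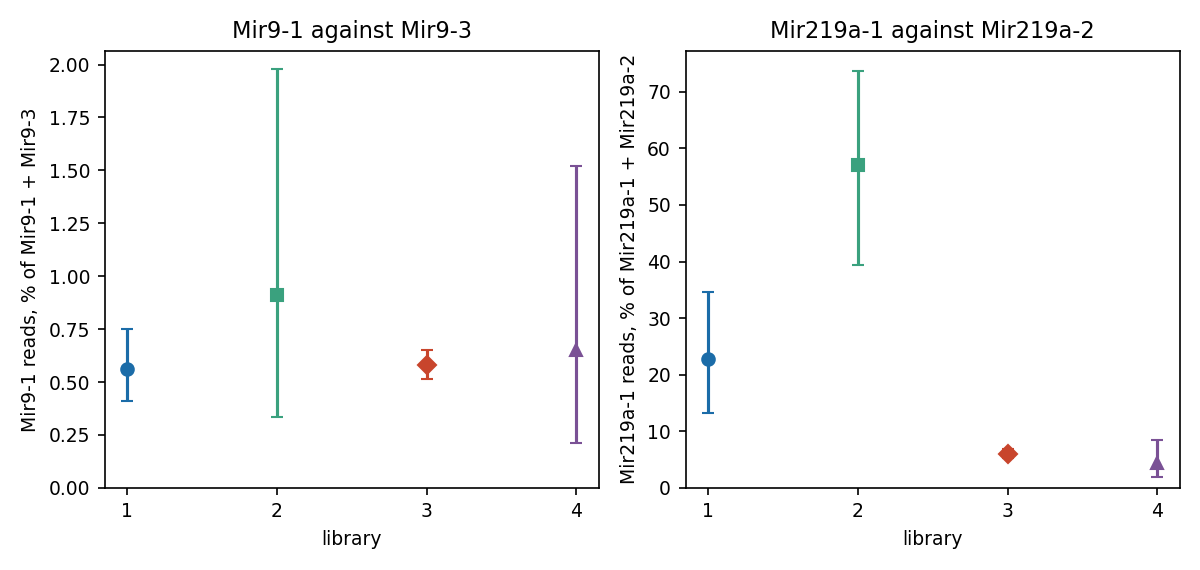
Share of reads listed under Mir9-1 out of Mir9-1 plus Mir9-3 (left, percent) and under Mir219a-1 out of Mir219a-1 plus Mir219a-2 (right, percent), by library, with exact 95% intervals. The Mir9-1 share stays between 0.563% and 0.913% with overlapping intervals, and the Mir219a-1 share ranges from 4.42% to 57.1%.

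miR-124 was scarce. The third copy was listed at 0.230, 0.143, 8.67 and 0.955 TPM in libraries 1 to 4, from 4, 2, 113 and 7 reads, and the second copy at 0.0718, 0, 1.44 and 0.426 TPM, from 2, 0, 30 and 5 reads. Both were highest in library 3 in TPM, but in RPM the second copy was highest in library 4, at 34.2 (11.1 to 79.8) against 30.7 (20.7 to 43.8) in library 3, with overlapping intervals. The first copy was listed at 0 in all 4 libraries. It overlaps an exon of its host long noncoding gene, which has a row of its own, so a listed 0 may not mean that its reads were absent. The second copy also overlaps an exon of a host with a row, and it did receive reads, as did Mir9-2. The RefSeq miRNA gene Gm51272 over the second copy and Gm27032, with an exon over the third, have no row.

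Summed over copies, miR-124 had 6, 2, 143 and 12 reads in libraries 1 to 4. In RPM this was 6.79 (2.49 to 14.8), 1.84 (0.223 to 6.64), 146 (123 to 172) and 82.0 (42.4 to 143). The intervals of libraries 3 and 4 overlap on this scale, and both lie above those of libraries 1 and 2. The step between libraries 3 and 4, which was 7.32-fold in TPM, was 1.78-fold in RPM.

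Mir137 was the least variable member with reads, and close to the limit of counting. It was listed at 0.375, 0.333, 1.07 and 0.254 TPM in libraries 1 to 4, from 7, 5, 15 and 2 reads. Library 3 was highest in TPM, at 2.86 times the next library. In RPM its level was 7.93 (3.19 to 16.3), 4.60 (1.49 to 10.7), 15.3 (8.58 to 25.3) and 13.7 (1.66 to 49.4), and all 4 intervals overlap. With 2 to 15 reads per library, these values do not settle whether Mir137 differed between libraries.

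The 4 families can be set against each other within each library. Summed over copies, miR-9 was at 835 ± 1370, miR-219a at 53.3 ± 92.5, miR-124 at 2.98 ± 4.78 and miR-137 at 0.509 ± 0.379 TPM (SD, n = 4). Without library 3 the same means were 154, 7.15, 0.608 and 0.321 TPM. On the log2(TPM + 1) scale, miR-9 exceeded miR-219a by 4.11 ± 1.85, miR-124 by 6.54 ± 1.74 and miR-137 by 7.30 ± 2.48 (SD, n = 4), each in 4 of 4 libraries. miR-219a exceeded miR-124 by 2.43 ± 1.36 and miR-137 by 3.19 ± 2.57, also in 4 of 4 libraries. miR-124 over miR-137 was 0.76 ± 1.22 and above 0 in 2 of 4 libraries, so this last pair was not set apart. A sign-flip permutation test, exact and two-sided, gave p = 0.125 for each of the 5 ratios of 1 sign and p = 0.5 for the sixth. With 4 libraries 0.125 is the smallest p possible, so none of the 6 ratios could pass 0.05, before any adjustment.

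The proportions between families were not fixed across libraries. Reads of miR-219a were 0.819% (0.634 to 1.04) of miR-219a and miR-9 reads together in library 1, 5.06% (3.55 to 6.96) in library 2, 6.74% (6.53 to 6.96) in library 3 and 19.1% (16.6 to 21.7) in library 4. Library 1, which had the second highest miR-9, thus had the smallest proportion of miR-219a, and library 4 the largest. Reads of miR-124 were 0.0750% (0.0275 to 0.163) of miR-124 and miR-9 reads in library 1, 0.287% (0.242 to 0.338) in library 3 and 1.54% (0.797 to 2.67) in library 4, the same order of these 3 libraries. Library 2 gave 0.303% with a wide interval (0.0368 to 1.09). Reads of Mir137 were 0.0875% (0.0352 to 0.180) of Mir137 and miR-9 reads in library 1, 0.755% (0.246 to 1.75) in library 2, 0.0302% (0.0169 to 0.0498) in library 3 and 0.260% (0.0315 to 0.935) in library 4. Library 2 lay above libraries 1 and 3, and the intervals of libraries 1, 3 and 4 overlapped.

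**Figure D3:**
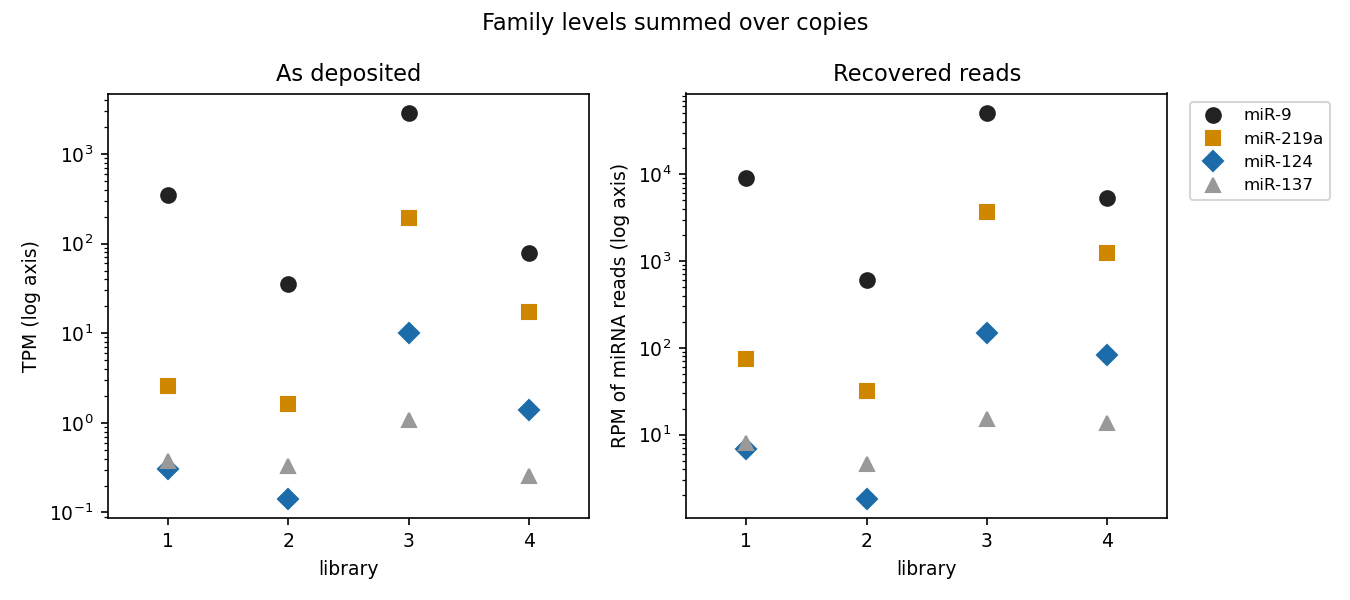
Level of each family summed over copies in each library, in TPM (left, log axis) and in RPM of miRNA reads (right, log axis). miR-9 is the highest family in all 4 libraries, and the gap between libraries 3 and 4 is smaller on the right, at 2.97-fold for miR-219a and 1.78-fold for miR-124.

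Against the other miRNA genes, the members were seldom detected throughout but often highest in library 3. At least 1 TPM in all 4 libraries was reached by 1 of 9 members, Mir9-3, against 33.1% of the 643 miRNA genes. Of the 9 members, 8 were highest in library 3 in TPM, against 29.9% of miRNA genes, and the ninth is the copy listed at 0. The same 8 were at least 2 times their next library there, against 12.4%. As 203 of the 643 genes were at 0 in every library, these shares were 43.6% and 18.2% of the 440 genes with reads. In RPM, 5 of 9 members met that 2-fold rule, against 8.71% of all miRNA genes and 12.7% of those with reads, and Mir9-2, the second miR-124 copy and Mir137 did not. Those 5 were Mir9-3 at 5.61 times its next library, Mir9-1 at 5.78, Mir219a-1 at 4.00, Mir219a-2 at 2.92 and the third miR-124 copy at 2.41 times. By Dixon's test for 4 values, 6 of 9 members had a library that stood far from the others, against 12.6% of miRNA genes, and in all 6 it was library 3 on the high side, against 5.75%. In RPM 2 of 9 had library 3 far above the others, against 4.35%. The members share loci and strands within a family, so these counts are not counts of independent miRNAs, and the library was singled out after its values were known.

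With a mean of at least 10 TPM, 170 miRNA genes could be ranked by the fold between their highest and second highest library, and the median fold was 1.33. Mir219a-2 passed the 10 TPM limit only through library 3, with a mean of 6.45 TPM without it. Its place below thus rests on the same value that admitted it. Mir219a-2 at 11.0 and then Mir9-3 at 8.28 came directly behind Mirlet7b, which peaked in library 1 at 18.0-fold. This order depended on the scale, and in RPM Mir9-3 was 9th at 5.61-fold and Mir219a-2 17th at 2.92-fold, with a median of 1.32, although no gene with its peak in library 3 stood above Mir9-3. Of the 15 highest in the TPM order, the library 3 peaks besides these members were Mir92b at 7.19, Mir20b at 6.72 and Mir363 at 4.43-fold. The peaks in library 1 were let-7 genes and Mir98, which belongs to the same family. Of these, Mirlet7b had 7.27, 1.78 and 4.80 TPM in libraries 2 to 4. Mir98, Mirlet7c-2 and Mirlet7f-1 were also below 10 TPM in libraries 2 to 4. These genes thus passed the 10 TPM limit only through library 1, and their places rest on it. Mir3068, which peaked in library 4, had 10.1, 7.64 and 8.25 TPM in libraries 1 to 3.

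The miRNAs most like Mir9-3 over the 4 libraries were sought among 168 other miRNA genes of at least 10 TPM. Likeness was the root mean square difference of log2(TPM + 1) after each gene was centred on its own mean, smaller being more alike, and its median over these genes was 2.38. The 5 most alike were Mir96 at 1.11, Mir92b at 1.25, Mir182 at 1.29, Mir183 at 1.32 and Mir205 at 1.33. Mir96, at 15.1, 3.03, 37.8 and 3.94 TPM in libraries 1 to 4, passed the 10 TPM limit through library 3. A limit on the mean thus favours low genes with 1 high library. Mir96, Mir182 and Mir183 form 1 cluster on chromosome 6, known from sensory organs, and Mir205 is known from stratified epithelia. Mir183 had 378, 106, 646.7 and 67.3 TPM in libraries 1 to 4, and Mir205 had 34.8, 10.1, 70.7 and 12.1 TPM, each with library 3 highest and library 1 next, but with a smaller step than Mir9-3. Mir92b had 51.7, 33.5, 372 and 49.2 TPM. Of the members, Mir9-1 lay at 0.999 from Mir9-3, the third miR-124 copy at 1.51, Mir219a-1 at 1.57, Mir219a-2 at 1.66 and Mir137 at 2.15.

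**Figure D4:**
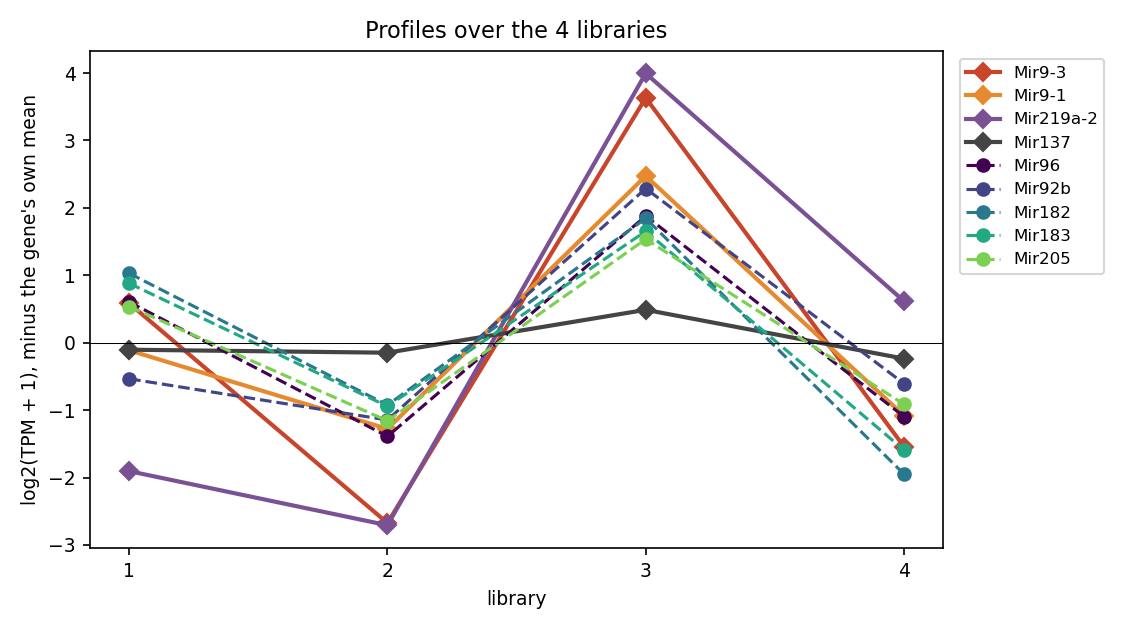
log2(TPM + 1) in each library minus the gene's own mean over the 4 libraries, for 4 members (solid lines) and the 5 miRNAs most like Mir9-3 (dashed lines). Lines join the values of 1 gene and mark no order of the libraries. All 9 genes are highest in library 3, and the flat line of Mir137, at 0.254 to 1.07 TPM, depends on the pseudocount of 1 TPM.

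Other neural miRNAs did not have their highest sum in library 3 on either scale. The list held 22 genes that included the miR-7, miR-128 and miR-218 copies, of which 21 had a row and 12 were detected throughout, while Mir135a-1 and Mir338 were listed at 0. Their sum was 835, 2117, 2084 and 684 TPM in libraries 1 to 4, with library 2 highest. In RPM it was 22725, 38807, 40947 and 48805, with library 4 highest. The 3 highest were Mir218-1 at 608 ± 361, Mir7-2 at 398 ± 258 and Mir128-1 at 239 ± 99.7 TPM (SD, n = 4). Of the 19 with any reads, 9 were highest in library 3 in TPM, against 43.6% of the 440 miRNA genes with reads. Of the same 19, Mir153, Mir135a-2 and Mir135b reached at least 2 times their next library there, against 18.2%. In RPM 3 of the 19 were highest in library 3, against 28.9%, and 0 reached 2 times the next, against 12.7%. The list thus showed no excess over miRNA genes in general by the 2-fold rule. Mir153, a brain miRNA picked after its values were seen, was listed at 0, 0.0705, 6.73 and 1.61 TPM in libraries 1 to 4. Library 4 was second for it, as for Mir219a-2 and miR-124, but in RPM its library 3 level was not 2 times the next. Other genes of the list went elsewhere in TPM. Mir7-2 and Mir128-1 were highest in library 2, Mir184 in library 1 and Mir138-1 in library 4.

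Long noncoding RNAs of the nervous system, and those host genes of members that have a row, were near 0. The list held 20 genes, of which 19 had a row, 3 were listed at 0 (Dlx1as, Otx2os1 and Cdr1os), and none reached 1 TPM in any library. Their sum was 0.0476, 0.0358, 0.766 and 0.368 TPM in libraries 1 to 4. Of the 16 genes above 0 in any library, 6 were highest in library 3 and all the others in library 4. The 3 highest were Six3os1, Pantr1 and the host of the second miR-124 copy. Six3os1, a transcript opposite the forebrain and eye gene Six3, made up most of the library 3 sum, at 0.0208, 0.0184, 0.624 and 0.0260 TPM. Pantr1 was listed at 0, 0, 0.0478 and 0.119 TPM. Mir9-3hg, the host of the most abundant member, was listed at 0, 0.00122, 0.00393 and 0 TPM, and C130071C03Rik at 0, 0, 0.00763 and 0.0271 TPM. Mir137hg and the overlapping genes Gm3764, Cercam, Gm26940, Gm26871 and Gm27032 have no row, so their levels were not measured. Reads were not recovered for long RNAs, and a library of small RNA holds only pieces of them.

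Markers of the labelled stroma and of other cell types were read in the same libraries. For the counts below, 43.6% of the 440 miRNA genes with reads were highest in library 3 in TPM and 28.9% in RPM. Of 6 mesenchymal and smooth muscle miRNA genes, 4 were detected throughout and Mir199a-2 and Mir214 were listed at 0, with a sum of 1894, 2373, 1444 and 331 TPM in libraries 1 to 4. In RPM it was 40024, 31046, 19975 and 16526, lower in libraries 3 and 4 than in libraries 1 and 2. The 3 genes of the sensory cluster summed to 681, 183, 1191 and 107 TPM and to 14369, 2506, 17107 and 5750 RPM, all 3 highest in library 3 on both scales. Erythroid miRNAs summed to 3.88, 0.878, 11.9 and 0.902 TPM and in RPM to 167 in library 3 and at most 80.4 in the others, with 2 of 3 genes highest in library 3 on both scales and Mir486 at 0. The epithelial list (the miR-200 family and Mir205) was highest in library 3 in TPM alone. Its sum was 73.8, 46.3, 157 and 43.5 TPM, with 5 of 6 genes highest in library 3, and 1504, 631, 2187 and 2291 RPM, with 2 of 6 highest in library 3 and 4 in library 4. Mir126a of endothelium had 279.9, 436, 528 and 251 TPM, and in RPM was highest in library 4, at 13490. Striated muscle miRNAs summed to 342, 130, 122 and 224 TPM, with Mir1a-2 at 0, and in RPM were highest in library 4, at 12109. Mir206 made up most of this sum, with a mean of 191 of 205 TPM. Of the 5 muscle genes with reads, 4 were highest in library 3 in TPM. In RPM 3 were highest in library 3 and 2 in library 4. Liver Mir122 had 91.8, 23.5, 51.7 and 143 TPM and was highest in library 4 on both scales. The sensory and erythroid lists thus had their highest sums in library 3 on both scales, as the neural members did, but by smaller steps. In RPM the sensory sum was 17107 in library 3 against 14369 in library 1, and the erythroid sum 167 against 80.4. The 9 members summed to 54609 RPM in library 3 against 9141 in library 1. Mir451a made up most of the erythroid sum. The epithelial and endothelial lists had their highest sums in library 3 in TPM alone. The part of these lists in the result was not tested. In RNA from many sorted cells together, more cells of a type and more RNA per cell cannot be told apart.

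**Figure D5:**
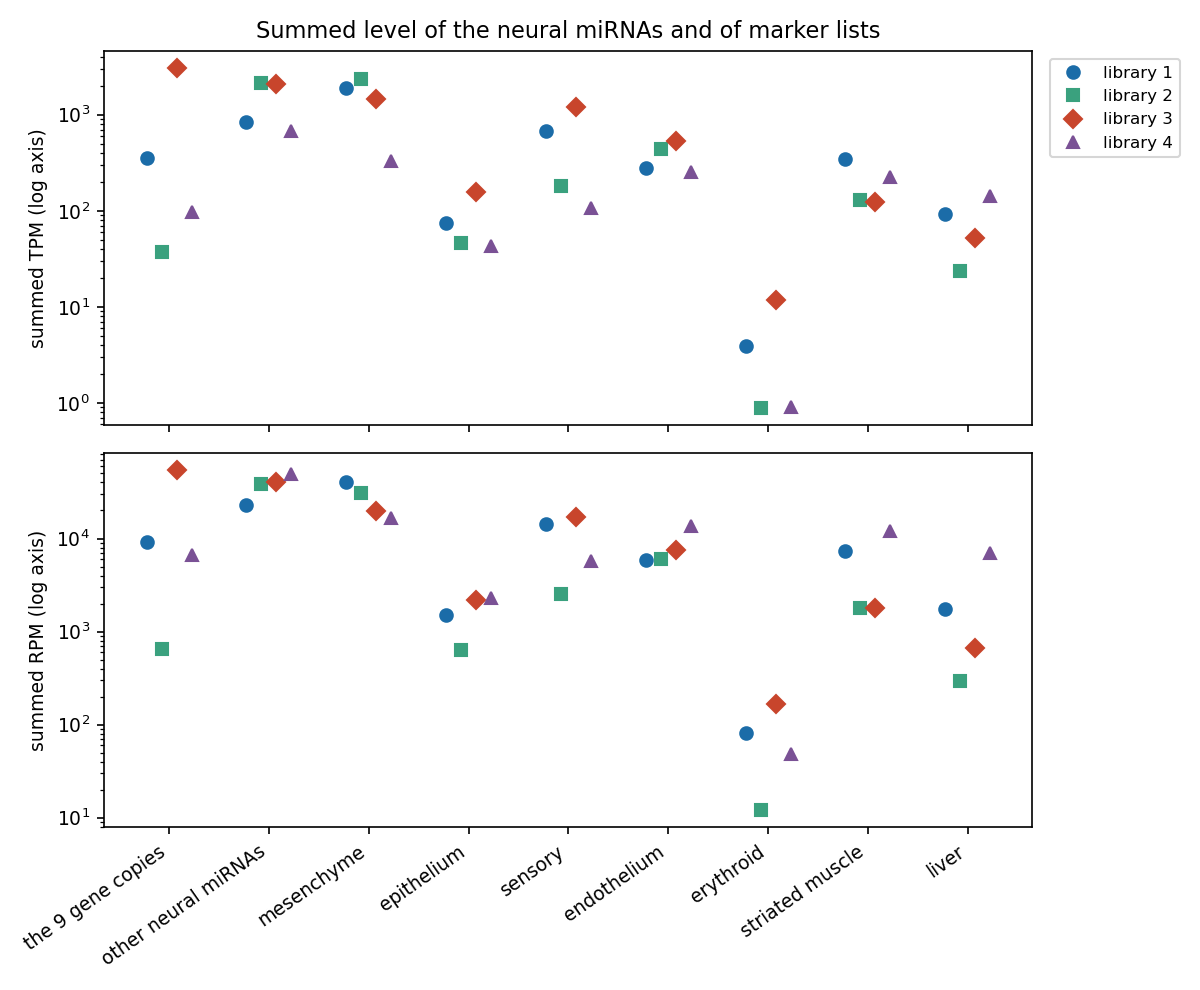
Summed level (log axes) in each library of the 9 gene copies and of the miRNA lists for other neural miRNAs and for 7 cell types, in TPM (top) and RPM (bottom). The 9 copies sum to 3082 TPM in library 3 and to between 37.6 and 351 TPM in the others, and library 3 stays highest for them in RPM, at 54609, while the epithelial and endothelial lists are highest in library 3 in TPM alone.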

How the data were processed

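Flow-sorted cells went straight into lysis reagent, total RNA including small RNA was extracted, and small RNA libraries were made and read as 75 bp single reads on a NextSeq, per the labels' protocols. The authors deposited 1 table of TPM values with 1 column for each library. The build, mm10 (GRCm38), and the use of limma are known from the submitters' processing notes. Those notes, as used here, give no aligner, counter or annotation, and no rule for multi-mapping reads.

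Rows were joined by gene ID to RefSeq genes of GRCm38.p6, matching 2541 of 2976. Reads were recovered as TPM times hairpin length over the smallest such product in each library, and 100% of nonzero miRNA values came out whole within 0.01. TPM divides by hairpin length, which raises short hairpins. No count model was fitted. Host genes came from GENCODE vM21, strands and sequences from RefSeq. Ratios used a pseudocount of 1 TPM, which understates differences of low genes. The scripts were tested on simulated data.

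All 9 members are named, with overlapping genes (the miR-9b genes as a group), hosts with a row, the 3 highest genes of each neural list, and the 5 miRNAs most like the highest member. Values of list genes named otherwise (Mir153, Mir135a-2, Mir135b, the cell type markers) and of the highest folds were chosen after they were seen. The members and lists were chosen with earlier results of these data known. Alternatives covered pseudocounts, thresholds, rescaling, copies and left-out libraries. Tools were scipy 1.17.1, Biopython 1.88, numpy 2.4.6, pandas 2.3.3 and matplotlib 3.10.9 under Python 3.11.15.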

Additional observations from a re-analysis of the deposited data

Results flagged for a closer look

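In 6 of 9 members the highest library stood apart by Dixon's test for 4 values, in which the gap to the nearest library over the whole range exceeds its 95% critical value, and in each it was library 3. The ratios in TPM were 0.890 for Mir9-3, 0.900 for Mir9-1, 0.963 for Mir219a-1, 0.913 for Mir219a-2, 0.905 for the third miR-124 copy and 0.852 for Mir137. Summed over copies they were 0.890 for miR-9, 0.918 for miR-219a and 0.876 for miR-124. For normally distributed values, chance gives such a ratio, for any library and in either direction, in about 1 of 20 groups. These TPM values were skewed, with an SD above the mean for Mir9-3, so that rate may not hold. The test was not run on a log scale. Of the 643 miRNA genes, 12.6% had a ratio above the critical value. Library 3 stood apart upwards in 5.75% of them. In RPM, a scale added after the data were seen, 2 of 9 members passed, Mir9-3 at 0.832 and Mir9-1 at 0.843, against 4.35% of miRNA genes. Mir137, counted among the 6 in TPM, rests on 7, 5, 15 and 2 reads in libraries 1 to 4. Its ratio in RPM was 0.310.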

How the results depend on the processing

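With 1 group, no paired analysis was possible because there was no second group to pair with. All 6 family ratios kept their direction under every alternative run, but their size depended on the pseudocount: with 10 and 0.1 TPM, miR-9 over miR-137 was 4.60 and 8.74, miR-219a over miR-137 was 1.51 and 4.37, and miR-9 over miR-219a was 3.09 and 4.37. Leaving out a library gave 0.21 to 1.09 for miR-124 over miR-137, 154 to 1102 TPM for the mean of miR-9, 7.15 to 70.5 for miR-219a, 0.608 to 3.93 for miR-124 and 0.321 to 0.593 for miR-137, each lowest without library 3. The count of members detected, 1 at 1 TPM, was 6 at 0.1 TPM in all libraries, 8 for any reads at all, and 1 to 2 with a library left out, the second being Mir219a-2 without library 2. The count of members at least 2 times higher in library 3, 8 in TPM, was 5 in RPM and 5 after rescaling to an equal miRNA total, both added after the data were seen. Under 3 added alternatives the 5 miRNAs most like Mir9-3 were the same 5. Depth limits Mir137, miR-124, Mir9-2 and Mir219a-1, with 30 reads or fewer in most libraries, most of all in library 4.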
